A study of Arabidopsis thaliana with 12 samples.

Results

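Nuclear genes for the photosynthetic apparatus were examined in Arabidopsis roots. The members were taken as a fixed list of 52 gene identifiers covering the light-harvesting antennae, both photosystems, electron transport, the ATP synthase, Rubisco with its activase, and the glyceraldehyde-3-phosphate dehydrogenase of the Calvin cycle. Of these, 43 had a row in the table of 20814 genes. The 9 others (LHCB1.1, LHCB1.2, LHCB1.4, LHCB1.5, LHCB2.2, PSAH2, RBCS1B, RBCS2B and RBCS3B) were not analysed here. Wild-type seedlings were grown for 4 d and then kept for 3 d at 22 °C on fresh half-strength MS medium with BiAux (5 µM), IAA (10 nM), BiAux+IAA (both doses together) or neither (mock). Poly(A) RNA of whole roots was sequenced in 3 libraries per treatment, 12 in all. IAA is the natural auxin, and BiAux is the compound that the study examined as a regulator of lateral root formation. The comparisons ask how each compound changes root transcripts and whether BiAux acts differently when IAA is present.

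Antenna proteins bind chlorophyll and pass light energy to photosystems I and II, which drive electrons from water to NADP through the cytochrome complex, plastocyanin and ferredoxin. Rubisco and the Calvin cycle then fix carbon with the products. Most of these proteins are encoded in the nucleus, and in leaves their genes are among the most highly expressed and are raised by light through factors such as HY5 and the GOLDEN2-LIKE (GLK) proteins. Roots hold mostly non-green plastids, express the same genes weakly, and can green in light or after removal of the shoot, a process that auxin is known to repress. The study states that its roots were shaded with the D-Root device except where it says otherwise, and its sequencing methods do not mention light.

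The values are the authors' normalized counts, which summed to between 32413978 and 32720463 per library, while sequencing depth is unknown. Groups follow the library titles. The treatment field of the labels names another treatment than the title in 7 of the 12 libraries, among them all 3 BiAux and all 3 IAA libraries. Which of the labels is right was not tested. Every direction below holds for the libraries as titled, and if the BiAux and IAA titles were exchanged, the results given for these groups would be exchanged too. IAA 3 holds no gene under 3 normalized counts, whereas the other 11 libraries hold between 41 and 141 genes at 0, so the table lacks genes that were barely detected in IAA 3. Root-defining genes were present in every library, and 8 of 8 root markers had a row. Of 14 shoot markers that are not photosynthesis genes, 5 had a row (CER1, PDF1, LTP3, SPCH and TMM), and the stomatal genes SPCH and TMM lay between 1 and 16 normalized counts. In bulk roots, fewer cells of a type and less RNA per cell cannot be told apart.

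Promoters of 5 members are shown because these genes illustrate the separate patterns described below. LHCB1.3 and RBCS1A had their lowest mean with BiAux, LHCB6 and LHCB2.3 with IAA, and LHCA4 was the most abundant antenna transcript and was called in no comparison. The 250 bases before the annotated start of each gene were read from the RefSeq genome TAIR10.1, 5′ to 3′ on the strand of the gene. Capitals mark matches, on either strand, to the G-box CACGTG (bound by HY5 and related light factors), the I-box GATAAG of light-regulated genes, the element CCAATC that recurs in promoters of GLK target genes, the auxin response element TGTCTC, and the evening element AAAATATCT of clock-regulated genes. No matches overlap in these sequences. LHCB1.3 lies at chr1:10477635-10477884, plus strand, RBCS1A at chr1:25049668-25049917, minus strand, LHCB6 at chr1:5447881-5448130, minus strand, LHCB2.3 at chr3:10255656-10255905, plus strand and LHCA4 at chr3:17495034-17495283, minus strand.
LHCB1.3: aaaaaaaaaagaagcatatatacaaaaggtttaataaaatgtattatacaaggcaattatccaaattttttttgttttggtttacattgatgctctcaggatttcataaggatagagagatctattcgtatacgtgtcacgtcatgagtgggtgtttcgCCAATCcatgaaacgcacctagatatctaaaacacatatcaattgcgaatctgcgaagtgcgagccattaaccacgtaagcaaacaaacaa
RBCS1A: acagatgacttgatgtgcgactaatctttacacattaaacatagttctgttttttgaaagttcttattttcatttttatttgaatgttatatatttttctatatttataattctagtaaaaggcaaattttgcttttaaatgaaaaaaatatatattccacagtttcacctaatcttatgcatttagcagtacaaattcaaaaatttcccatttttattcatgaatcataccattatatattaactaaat
LHCB6: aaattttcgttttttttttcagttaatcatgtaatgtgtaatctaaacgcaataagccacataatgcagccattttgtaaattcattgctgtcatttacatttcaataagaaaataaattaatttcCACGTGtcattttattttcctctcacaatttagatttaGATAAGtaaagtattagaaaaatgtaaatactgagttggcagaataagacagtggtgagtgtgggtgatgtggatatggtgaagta
LHCB2.3: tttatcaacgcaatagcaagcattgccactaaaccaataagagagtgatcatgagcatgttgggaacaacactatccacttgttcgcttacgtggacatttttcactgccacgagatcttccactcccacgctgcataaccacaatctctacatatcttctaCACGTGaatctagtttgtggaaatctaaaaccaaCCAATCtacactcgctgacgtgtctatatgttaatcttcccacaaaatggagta
LHCA4: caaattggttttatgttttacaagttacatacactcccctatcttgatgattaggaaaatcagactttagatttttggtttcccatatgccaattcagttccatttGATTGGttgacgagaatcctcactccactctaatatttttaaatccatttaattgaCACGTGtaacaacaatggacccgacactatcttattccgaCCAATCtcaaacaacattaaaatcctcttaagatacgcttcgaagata

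In LHCB1.3 a single CCAATC stood 91 bases before the start. The LHCB6 promoter held a G-box 124 bases and an I-box 86 bases before the start. LHCB2.3 had a G-box at 88 bases and CCAATC at 54 bases, and LHCA4 had a G-box at 88 bases between a pair of CCAATC elements at 144 and 48 bases. None of the 5 motifs was found in this window of RBCS1A. Since RBCS1A held none here, it could share no motif with LHCB1.3, and bases further before its start were not searched. A G-box occurred both in genes that were called lower with IAA and in LHCA4, which was not. Other members, such as GAPB, PSAL and PSAH1, also had their lowest mean in BiAux. These descriptions therefore hold only for the genes shown and for windows before the annotated starts used.

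Across the 43 members with a row, in windows from 250 bases before to 50 bases after the start, the I-box was found in 23 (53.5%), against 14.4% of the 20493 protein-coding genes of the table. CCAATC was found in 17 members (39.5%), against 12.6% of all, and the G-box in 13 (30.2%), against 8.7%. The auxin response element was found in 5 members (11.6%), against 13.7% of all genes, and the evening element in 1 (ATPC1, 2.3%), against 2.9%. Hence the 3 light-associated motifs were more frequent in these promoters than in the table as a whole, and the auxin and evening elements were not. A match is a run of letters and was not tested as a binding site.

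**Figure D1:**
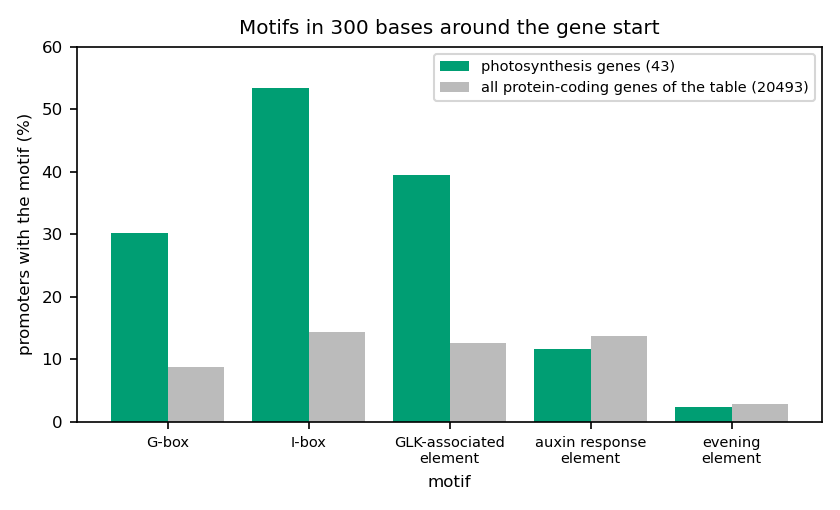
Share of promoters (%) that hold each of 5 motifs, among the 43 photosynthesis genes (green) and the 20493 protein-coding genes of the table (grey). The G-box, the I-box and the element associated with GLK factors stand higher among the photosynthesis genes (30.2%, 53.5% and 39.5%) than among all genes (8.7%, 14.4% and 12.6%).

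Photosynthesis transcripts made up a small part of the root transcriptome. Summed over the 43 members, they reached 434, 384 and 384 CPM (the members' normalized counts over the library total, on the CPM scale) in BiAux 1 to 3, 416, 432 and 330 CPM in IAA 1 to 3, 457, 375 and 367 CPM in BiAux+IAA 1 to 3, and 586, 443 and 465 CPM in mock 1 to 3. Mock 1 held the highest sum of the 12 libraries and IAA 3 the lowest. All BiAux and all IAA libraries lay below all mock libraries, and BiAux+IAA 1 lay above mock 2. Divided by exon length, the mean over the 12 libraries ran between 4.2 normalized counts per kb for PSAG and 2453 for PSBR, a photosystem II protein of the lumen. Next in level per kb came LHCA4 (1353), PSBO1 (862), PSBX (656) and LHCB4.1 (610). The subunits of one complex thus differed widely in level per kb.

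Of the 43 members, 41 averaged 0.5 CPM or more and were tested with limma on log2(normalized count + 16.3). PSAG (between 1 and 5 normalized counts) and PSAE1 (between 4 and 18) were not tested. LHCB2.3, PSBS and GAPB passed this minimum only through their higher groups, since GAPB lay below it in BiAux, PSBS in IAA, and LHCB2.3 in IAA and BiAux+IAA. Calls of these genes in the comparisons below carry that selection and are given for their values only. The added 16.3 understates changes of weakly expressed genes such as GAPB, PSBS and LHCB2.3. A gene was called where the unadjusted p was under 0.05 and the log2 fold change lay beyond 0.5 in either direction. Adjusted p-values are those of Benjamini and Hochberg over the 19338 genes tested.

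Libraries also differed within groups. The median deviation of the 41 members from their mock mean was -0.12, -0.36 and -0.40 on the log2 scale in BiAux 1 to 3, -0.31, -0.26 and -0.58 in IAA 1 to 3, -0.11, -0.42 and -0.34 in BiAux+IAA 1 to 3, and 0.25, -0.11 and -0.07 in mock 1 to 3. Mock 1 was the highest mock library for 32 of 41 members, BiAux 1 the highest BiAux library for 26, BiAux+IAA 1 the highest of its group for 35, and IAA 3 the lowest IAA library for 34. Part of the spread was therefore shared by most members. Mock 1 and BiAux 1 also stood apart in their groups for the root markers, in both directions. They were the highest for COBL9 and EXPA7 of root hairs, CASP1 of the endodermis, PHT1;1 and PYK10, and the lowest for SCR, SHR and PHO1. The part of these differences in the results was not tested. COBL9 had 3308, 2174 and 2298 normalized counts in BiAux, against 2657, 2171 and 1464 in mock, and CASP1 had 14302, 10354 and 10022 in BiAux, against 14441, 8846 and 6850 in mock, whereas SHR had 755, 1117 and 1079 in BiAux, against 837, 1315 and 1320 in mock.

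**Figure D2:**
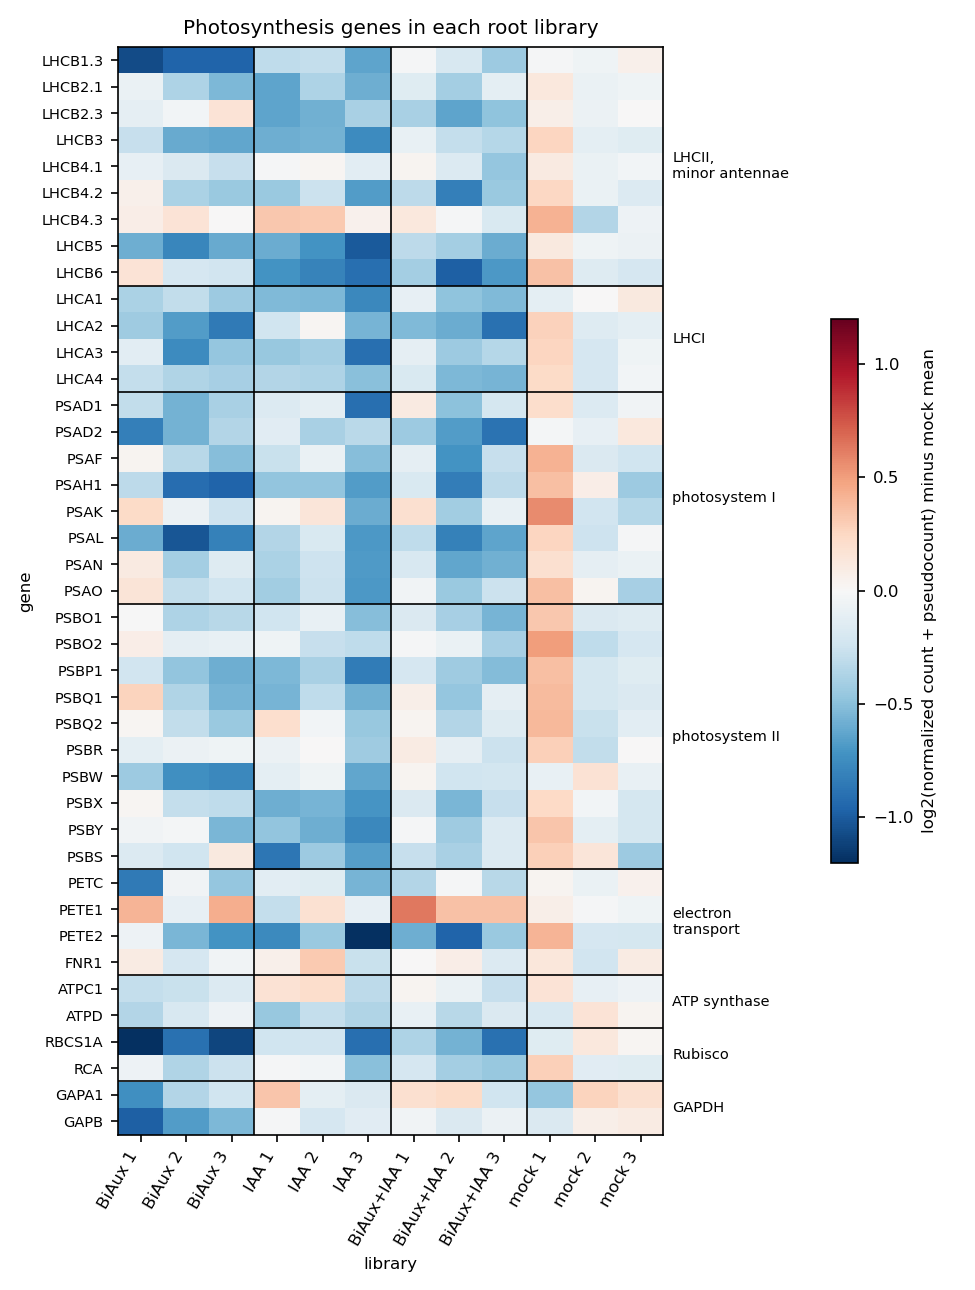
Each row is 1 of the 41 tested genes, grouped by role, and each column is 1 library; colour gives log2(normalized count + 16.3) minus the mean of the 3 mock libraries. Mock 1 is redder than mock 2 and mock 3 in most rows (highest of the mock libraries in 32 of 41), and the treated libraries are mostly blue, with LHCB1.3 and RBCS1A deepest in BiAux.

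In BiAux roots, photosynthesis transcripts tended to lie below mock. Of 41 members, 38 had a log2 fold change below 0, 9 were called lower (22.0%) and 0 higher, where 1.08% of all tested genes were called lower and 0.507% higher. The median log2 fold change was -0.26 over the members and -0.04 over all genes. The 9 were RBCS1A, LHCB1.3, PSAL, PSAH1, GAPB, LHCB5, LHCA2, PSBW and PSAD2. Their order by size depended on the value added before the logarithm, since on the deposited log2 values GAPB (-1.25) came before RBCS1A (-1.11), PSAH1 (-1.09) and LHCB1.3 (-1.06). In 15 of 41 members (36.6%), every BiAux library lay below every mock library, which held for 6.29% of all tested genes. GAPB was tested only through its higher groups, so neither its call nor its lack of overlap with mock counts as support. No member had an adjusted p under 0.05 (15 had an unadjusted p under 0.05, and the smallest adjusted p was 0.0519, for LHCB1.3). Of the 19338 genes tested, 822 had an unadjusted p under 0.05. Without mock 1 the number called was 9 and the median was -0.15, with PSAH1 no longer called. Same-numbered BiAux and mock libraries deviated together, although only those numbered 1 stood apart from the rest. With the replicate number as a block the same 9 members were called. In that fit 14 were lower with an adjusted p under 0.05, where 1.72% of all tested genes were. The labels do not give this pairing, which was taken from these same data. Adjusted p-values with the block, here and below, are therefore no separate evidence.

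In IAA roots, the transcripts called lower than in mock were chiefly those of antennae and of photosystem II. Of 41 members, 37 had a log2 fold change below 0, 13 were called lower (31.7%) and 0 higher, where 2.00% of all tested genes were called lower and 1.29% higher. The median log2 fold change was -0.41 over the members and 0.00 over all genes. Of the 9 tested LHCII and minor antenna genes, 5 were called lower (LHCB2.1, LHCB2.3, LHCB3, LHCB5 and LHCB6), as were LHCA1 and LHCA3, the photosystem II genes PSBP1, PSBS, PSBX and PSBY, PSAH1, and the plastocyanin gene PETE2. LHCB2.3 and PSBS lay below the minimum for testing in IAA, so their calls do not count as support. Neither Rubisco gene nor either GAPDH gene was called. Every IAA library lay below every mock library for 21 members (51.2%), against 11.9% of all genes. Again 0 members had an adjusted p under 0.05 while 20 had an unadjusted p under 0.05, and the smallest adjusted p was 0.0642 for LHCB5. Of the 19338 genes tested, 3241 had an unadjusted p under 0.05. Without mock 1 only 6 members were called lower and the median was -0.29. Without IAA 3, which was the lowest IAA library for most members, 8 were called.

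BiAux+IAA against mock gave 7 members called lower (17.1%) and 0 higher, where 3.73% of all tested genes were called lower and 1.87% higher. These were LHCB6, LHCA2, PSAD2, PETE2, RBCS1A, PSAL and LHCB4.2. In all, 39 of 41 members had a log2 fold change below 0, and the median was -0.25 over the members and -0.01 over all genes. Every BiAux+IAA library lay below every mock library for 13 members (31.7%), against 11.6% of all genes. Of the members, 16 had an unadjusted and 0 an adjusted p under 0.05, the smallest adjusted p being 0.0970 for RBCS1A. Of the 19338 genes tested, 2543 had an unadjusted p under 0.05. Without mock 1 the number called lower was 4, and without BiAux+IAA 1 it was 11.

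In total, 21 members were called lower in at least 1 of the 3 comparisons with mock, 20 were called in none, and no member was called in all of them. These comparisons share the 3 mock libraries. BiAux and IAA had LHCB5 and PSAH1 in common (2 of 9 and 2 of 13). BiAux and BiAux+IAA had LHCA2, PSAD2, PSAL and RBCS1A in common (4 of 9 and 4 of 7), and IAA and BiAux+IAA had LHCB6 and PETE2 (2 of 13 and 2 of 7).

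**Figure D3:**
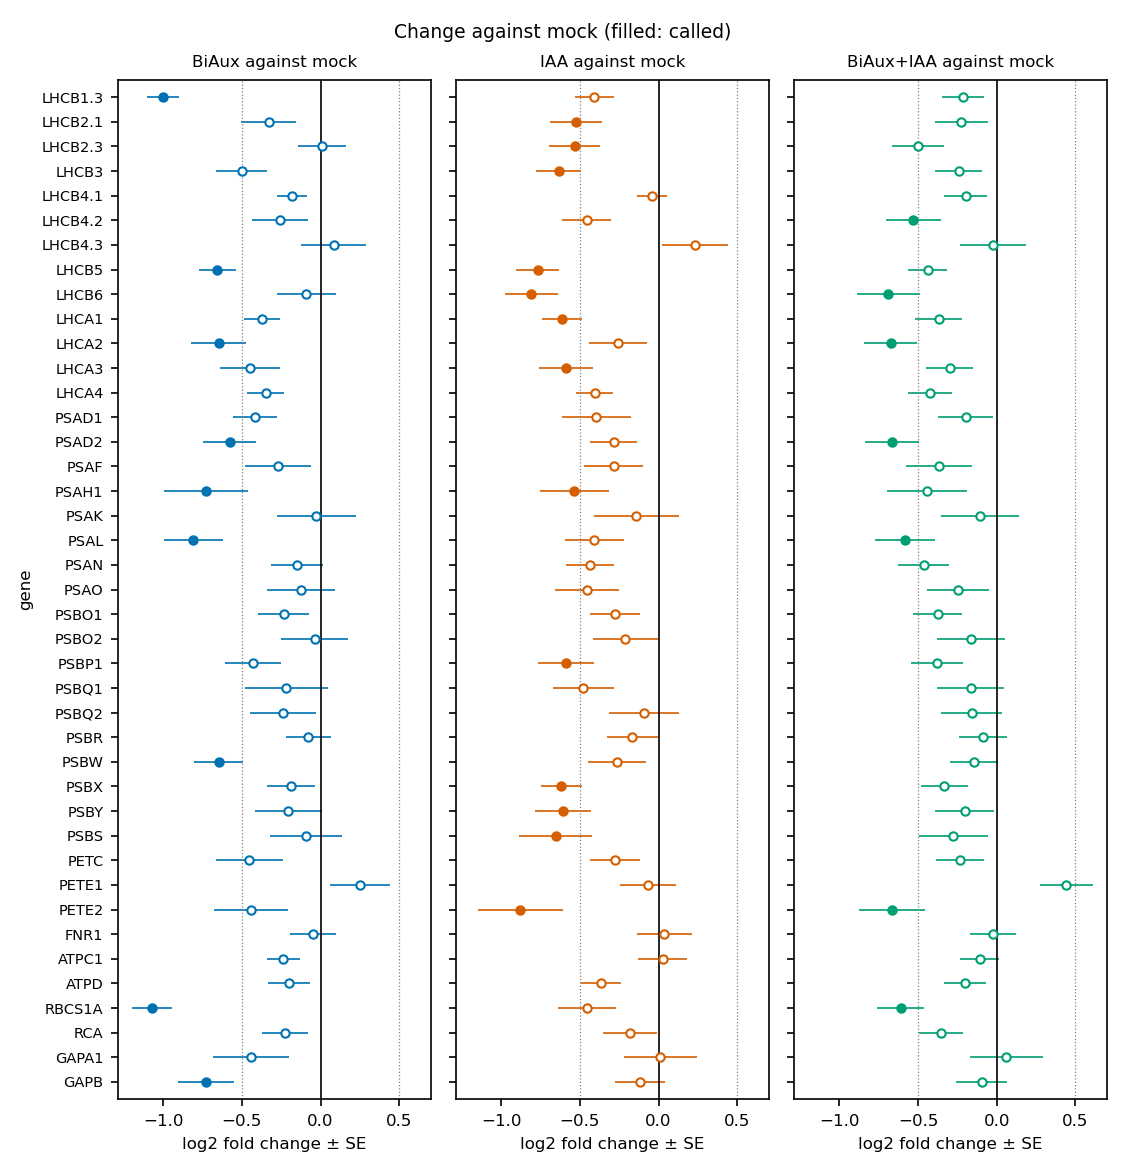
Log2 fold change against mock (x axis, point ± standard error from limma) of each of the 41 tested genes, in the BiAux, IAA and BiAux+IAA libraries; filled points were called and dotted lines mark -0.5 and 0.5. Most points lie left of 0 in each panel (38, 37 and 39 of 41), and the filled points differ between panels, with LHCB1.3 and RBCS1A lowest for BiAux and PETE2 and LHCB6 lowest for IAA.

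Among the antennae of photosystem II, LHCB1.3 (AT1G29930), which encodes a major subunit of the LHCII trimer, had the lowest values with BiAux. It had 182, 197 and 197 normalized counts in BiAux, 320, 326 and 252 in IAA, 396, 349 and 291 in BiAux+IAA, and 397, 385 and 419 in mock. All BiAux libraries lay below those of the other groups, and BiAux+IAA overlapped mock. The log2 fold change against mock was -1.0 ± 0.10 with BiAux (log2 scale, SE; adjusted p 0.0519, 0.000205 with the replicate block), -0.41 ± 0.13 with IAA (adjusted p 0.176) and -0.21 ± 0.13 with BiAux+IAA (adjusted p 0.595). Leaving out any 1 library moved the BiAux value only between -1.03 and -0.97. The gene shares 3.3% of its 100-base windows exactly with LHCB1.1. How reads of near-identical LHCB1 copies were assigned is not known, so its level is uncertain by an unknown amount. Of its exonic bases, 8.8% overlap a gene on the other strand.

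LHCB6 (AT1G15820), the minor antenna CP24 that joins LHCII to the photosystem II core, had its lowest values in the groups that received IAA. It had 255, 195 and 190 normalized counts in BiAux, 131, 123 and 113 in IAA, 167, 107 and 134 in BiAux+IAA, and 294, 201 and 195 in mock. Both groups that received IAA lay below mock without overlap, while BiAux overlapped mock. The log2 fold change against mock was -0.09 ± 0.19 with BiAux (adjusted p 1.00), -0.81 ± 0.17 with IAA (adjusted p 0.0882) and -0.69 ± 0.20 with BiAux+IAA (adjusted p 0.153). Mock 1 lay above the other mock libraries, and without it the IAA value was -0.63. Of its exonic bases, 20.4% overlap genes on the other strand, and no source used here states that counting used strand.

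LHCB5 (AT4G10340), the minor antenna CP26, was lower with each compound. It had 214, 185 and 211 normalized counts in BiAux, 213, 194 and 156 in IAA, 261, 244 and 213 in BiAux+IAA, and 359, 317 and 313 in mock. All 9 treated libraries lay below all 3 mock libraries. Its log2 fold change was -0.66 ± 0.12 with BiAux (adjusted p 0.254), -0.77 ± 0.14 with IAA (adjusted p 0.0642) and -0.44 ± 0.12 with BiAux+IAA (adjusted p 0.145, not called).

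LHCB3 (AT5G54270), a further LHCII trimer subunit, had 210, 164 and 162 normalized counts in BiAux, 166, 169 and 146 in IAA, 241, 208 and 200 in BiAux+IAA, and 312, 236 and 232 in mock. BiAux and IAA lay below mock in every library, and BiAux+IAA overlapped mock through 1 library. The log2 fold change was -0.50 ± 0.16 with BiAux (not called), -0.64 ± 0.14 with IAA (called) and -0.24 ± 0.15 with BiAux+IAA. Of its exonic bases, 15.0% overlap a gene on the other strand.

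LHCB2.3 (AT3G27690) and LHCB2.1 (AT2G05100), LHCII subunits that are phosphorylated when antennae move between photosystems, were weakly expressed. LHCB2.3 had 23, 25 and 31 normalized counts in BiAux, 11, 12 and 16 in IAA, 16, 11 and 14 in BiAux+IAA, and 28, 24 and 26 in mock. As for LHCB6, the IAA and BiAux+IAA libraries lay below mock and BiAux overlapped it, with log2 fold changes of 0.01 ± 0.15 for BiAux, -0.53 ± 0.16 for IAA and -0.50 ± 0.17 for BiAux+IAA (the last not called). The gene shares 40.6% of its exonic bases with a gene on the other strand. LHCB2.1 lay between 14 and 35 normalized counts in all libraries and was called lower only with IAA (-0.53 ± 0.16).

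The most abundant minor antenna gene was called in no comparison. LHCB4.1 (AT5G01530; CP29) had 853, 806 and 751 normalized counts in BiAux, 900, 926 and 833 in IAA, 934, 814 and 655 in BiAux+IAA, and 986, 862 and 891 in mock. The BiAux libraries lay below mock, IAA and BiAux+IAA overlapped it, and the log2 fold changes were -0.18 ± 0.10, -0.04 ± 0.09 and -0.20 ± 0.14 for BiAux, IAA and BiAux+IAA. LHCB4.2, another CP29 gene, was called lower with BiAux+IAA only (-0.53 ± 0.17), and LHCB4.3 was called in no comparison with mock.

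**Figure D4:**
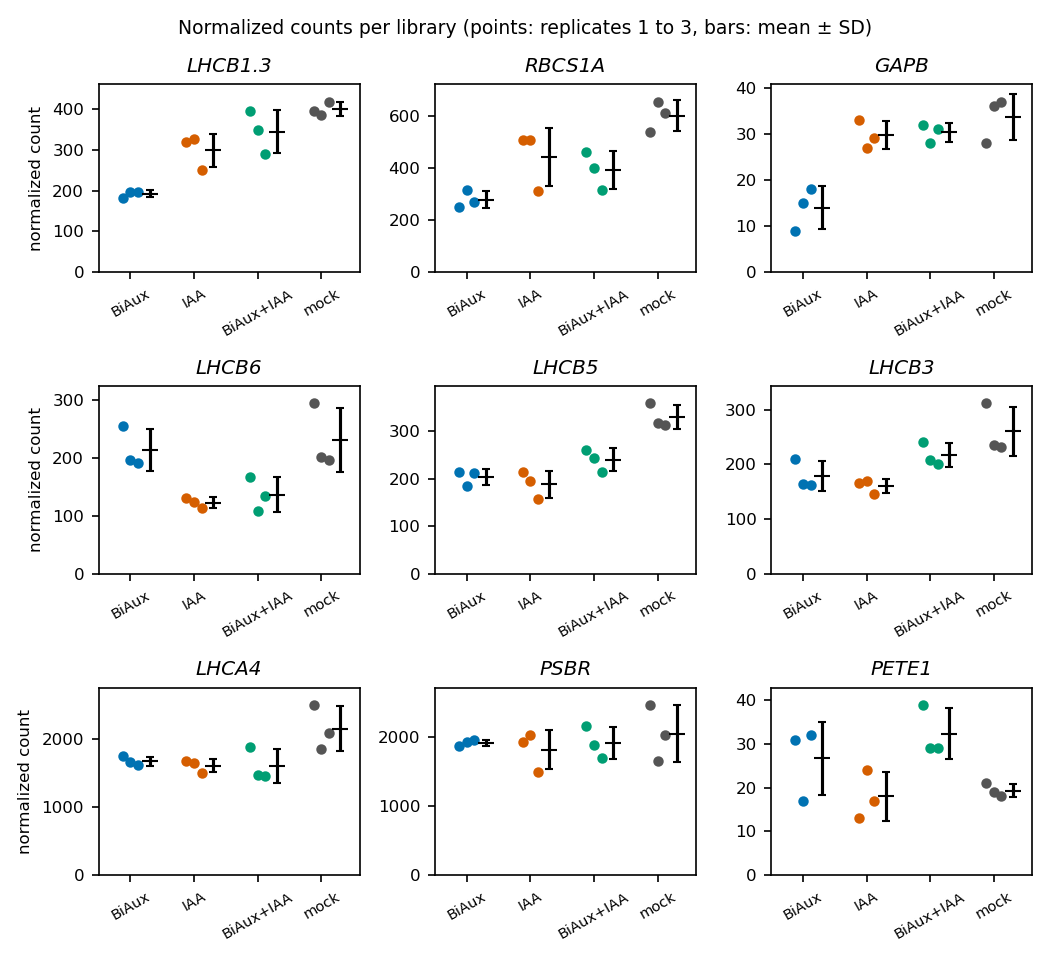
Normalized counts (y axis from 0) of 9 genes in the 3 libraries of each group (points, replicates 1 to 3 from left to right), with the mean ± SD as a bar. LHCB1.3, RBCS1A and GAPB have their lowest mean in BiAux, LHCB6 in IAA, and LHCB5 is below mock in every treated library. LHCA4 is below mock in every BiAux and IAA library but not in every BiAux+IAA library, and PSBR overlaps between all groups.

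The antenna belt of photosystem I had 4 of 4 genes with a negative log2 fold change in each comparison with mock. LHCA4 (AT3G47470) had 1737, 1654 and 1610 normalized counts in BiAux, 1669, 1646 and 1496 in IAA, 1878, 1459 and 1444 in BiAux+IAA, and 2498, 1852 and 2081 in mock. Every BiAux and every IAA library lay below mock, but the changes were small, at -0.35 ± 0.12, -0.41 ± 0.12 and -0.42 ± 0.14 on the log2 scale for BiAux, IAA and BiAux+IAA, and none was called. LHCA2 (AT3G61470) had 132, 109 and 95 normalized counts in BiAux, 153, 187 and 119 in IAA, 122, 116 and 91 in BiAux+IAA, and 225, 163 and 168 in mock. It was called lower with BiAux (-0.65 ± 0.17) and with BiAux+IAA (-0.67 ± 0.17) and was not called with IAA (-0.26 ± 0.19), whose libraries overlapped mock. LHCA3 (AT1G61520), by contrast, was called lower with IAA only, with 413, 263 and 324 normalized counts in BiAux, 326, 337 and 235 in IAA, 419, 330 and 354 in BiAux+IAA, and 544, 392 and 437 in mock. Its IAA value was -0.59 ± 0.17, and -0.46 without mock 1, when it was no longer called. LHCA1 was also called lower with IAA (-0.61 ± 0.13, adjusted p 0.0851).

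In photosystem I itself, the 8 tested subunits had negative log2 fold changes in all 3 comparisons with mock. PSAL (AT4G12800), which with PSAH forms the side where LHCII can dock, had 61, 41 and 50 normalized counts in BiAux, 75, 86 and 56 in IAA, 78, 50 and 59 in BiAux+IAA, and 123, 82 and 99 in mock. BiAux and BiAux+IAA lay below mock in every library, with called changes of -0.81 ± 0.19 (adjusted p 0.502) and -0.58 ± 0.19 (adjusted p 0.209), whereas IAA overlapped mock (-0.41 ± 0.19, not called). PSAD2 (AT1G03130), a stromal subunit at the ferredoxin docking site, was likewise called lower with BiAux (-0.58 ± 0.17) and with BiAux+IAA (-0.67 ± 0.17). It had 30, 39 and 48 normalized counts in BiAux, 58, 46 and 49 in IAA, 44, 35 and 28 in BiAux+IAA, and 64, 60 and 73 in mock. Its paralog PSAD1 was several times more abundant (208 ± 21.2 normalized counts in BiAux and 284 ± 40.6 in mock, SD, n = 3 each) and was not called. PSAH1 (AT3G16140) ranged between 16 and 64 normalized counts, with 34, 17 and 16 in BiAux, 29, 29 and 23 in IAA, 39, 19 and 34 in BiAux+IAA, and 64, 50 and 30 in mock. It was called lower with BiAux (-0.73 ± 0.27) and with IAA (-0.54 ± 0.22), but leaving out single libraries lost the call in 4 of 6 cases for BiAux and 5 of 6 for IAA, and 53.3% of its exonic bases overlap a gene on the other strand. The abundant subunits PSAF, which receives plastocyanin, and PSAK, at the antenna side, were called in no comparison. PSAF had 730, 563 and 495 normalized counts in BiAux, 589, 675 and 496 in IAA, 660, 428 and 585 in BiAux+IAA, and 956, 629 and 601 in mock, and PSAK had 409, 329 and 289 in BiAux, 353, 383 and 223 in IAA, 398, 255 and 323 in BiAux+IAA, and 519, 293 and 270 in mock. For both, mock 1 was the highest mock library and the other mock libraries overlapped every treated group.

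All 10 tested genes of photosystem II had negative log2 fold changes against mock in each comparison. PSBR (AT1G79040), the most abundant member, had 1864, 1923 and 1957 normalized counts in BiAux, 1926, 2024 and 1497 in IAA, 2162, 1881 and 1693 in BiAux+IAA, and 2470, 1650 and 2029 in mock. The groups overlapped throughout and the changes were -0.08 ± 0.14, -0.17 ± 0.16 and -0.09 ± 0.15 on the log2 scale for BiAux, IAA and BiAux+IAA. PSBO1 (AT5G66570), which shields the manganese cluster that splits water, had 1490, 1159 and 1189 normalized counts in BiAux, 1271, 1411 and 1048 in IAA, 1325, 1135 and 1016 in BiAux+IAA, and 1880, 1330 and 1348 in mock. Its BiAux+IAA libraries lay just below mock, the other groups overlapped it, and it was not called either. Calls were made for other subunits. PSBW, which stabilizes supercomplexes with LHCII, was called lower with BiAux only (-0.65 ± 0.16), at 73, 56 and 54 normalized counts in BiAux, against 97, 120 and 97 in mock. With IAA, PSBX (-0.62 ± 0.13), PSBY (-0.61 ± 0.18) and the oxygen-evolving protein PSBP1 (-0.59 ± 0.18) were called lower. PSBS (AT1G44575), which dissipates excess light energy as heat, was near the minimum for testing, with 25, 23 and 34 normalized counts in BiAux, 9, 18 and 13 in IAA, 22, 19 and 25 in BiAux+IAA, and 40, 35 and 18 in mock. The IAA call of PSBS (-0.65 ± 0.23) was lost on leaving out single libraries in 4 of 6 cases, and 1 of its IAA libraries equalled the lowest mock library.

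The 4 electron transport genes differed in direction. PETE2 (AT1G20340), the major plastocyanin gene, had 198, 137 and 120 normalized counts in BiAux, 116, 148 and 67 in IAA, 133, 99 and 148 in BiAux+IAA, and 282, 179 and 177 in mock. It was called lower with IAA (-0.88 ± 0.27, adjusted p 0.176) and with BiAux+IAA (-0.66 ± 0.21, adjusted p 0.185), and without mock 1 these values were -0.67 and -0.46, the second no longer called. The other plastocyanin gene, PETE1 (AT1G76100), had its highest mean in BiAux+IAA. It had 31, 17 and 32 normalized counts in BiAux, 13, 24 and 17 in IAA, 39, 29 and 29 in BiAux+IAA, and 21, 19 and 18 in mock. All BiAux+IAA libraries lay above all mock libraries and above all IAA libraries. The log2 fold change was 0.44 ± 0.17 against mock (not called) and 0.51 ± 0.18 against IAA (called, adjusted p 0.147). FNR1 (AT5G66190), the leaf-type ferredoxin-NADP reductase, had 201, 161 and 181 normalized counts in BiAux, 196, 236 and 153 in IAA, 188, 199 and 165 in BiAux+IAA, and 207, 157 and 201 in mock. All groups overlapped, with log2 fold changes of -0.05, 0.04 and -0.03 for BiAux, IAA and BiAux+IAA. The Rieske gene PETC was called in no comparison with mock.

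The chloroplast ATP synthase genes were called in no comparison. ATPC1 (AT4G04640; gamma subunit) had 549, 555 and 598 normalized counts in BiAux, 761, 781 and 537 in IAA, 688, 633 and 550 in BiAux+IAA, and 755, 624 and 641 in mock, with only the BiAux libraries all below mock. ATPD (AT4G09650; delta subunit) had 236, 266 and 292 in BiAux, 218, 248 and 235 in IAA, 286, 239 and 269 in BiAux+IAA, and 266, 343 and 312 in mock, with only the IAA libraries all below mock. The largest change of the pair was that of ATPD with IAA (-0.37 ± 0.13, adjusted p 0.213).

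Of the carbon fixation genes, RBCS1A (AT1G67090), a Rubisco small subunit, was called lower with BiAux and with BiAux+IAA. It had 250, 316 and 271 normalized counts in BiAux, 508, 509 and 314 in IAA, 461, 401 and 316 in BiAux+IAA, and 540, 657 and 611 in mock. All treated libraries lay below all mock libraries, and the BiAux libraries lay lowest together with IAA 3 and BiAux+IAA 3. The log2 fold change was -1.07 ± 0.13 with BiAux (adjusted p 0.0936, 5.69e-05 with the replicate block), -0.46 ± 0.19 with IAA (adjusted p 0.267, not called) and -0.61 ± 0.15 with BiAux+IAA (adjusted p 0.0970). RCA (AT2G39730), the activase that frees Rubisco of inhibitors, had 630, 510 and 551 normalized counts in BiAux, 653, 646 and 461 in IAA, 570, 494 and 478 in BiAux+IAA, and 806, 600 and 594 in mock. Its BiAux+IAA libraries lay below mock and the others overlapped it, and it was not called (-0.23 ± 0.15 with BiAux).

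GAPB (AT1G42970), which together with GAPA forms the NADPH-dependent GAPDH of the Calvin cycle, was low only with BiAux. It had 9, 15 and 18 normalized counts in BiAux, 33, 27 and 29 in IAA, 32, 28 and 31 in BiAux+IAA, and 28, 36 and 37 in mock. Every BiAux library lay below all other libraries. The log2 fold change was -0.73 ± 0.18 with BiAux (adjusted p 0.552, 0.0397 with the replicate block), -0.12 ± 0.16 with IAA and -0.10 ± 0.16 with BiAux+IAA. GAPA1 (AT3G26650) had 32, 47 and 52 normalized counts in BiAux, 85, 58 and 55 in IAA, 76, 78 and 52 in BiAux+IAA, and 42, 81 and 76 in mock. Its BiAux libraries overlapped mock through mock 1, and it was not called (-0.44 ± 0.24 with BiAux).

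Compared directly, 6 members were called between BiAux and IAA, 3 higher and 3 lower in BiAux, where 1.53% and 1.89% of all tested genes were. LHCB6 (0.72 ± 0.14, adjusted p 0.0525), PSBS (0.56 ± 0.18) and LHCB2.3 (0.54 ± 0.16) were higher in BiAux than in IAA. RBCS1A (-0.61 ± 0.19), GAPB (-0.61 ± 0.17) and LHCB1.3 (-0.59 ± 0.12, adjusted p 0.0660) were lower in BiAux than in IAA. Of these genes, PSBS and LHCB2.3 lay below the minimum for testing in IAA, and GAPB in BiAux. Each was tested only through its higher groups, so these calls do not count as support for a difference. The median over the 41 members was 0.09, or -0.04 without IAA 3, and that over all genes was -0.04. Without IAA 3, 7 members were called lower, and without IAA 1, only 1 was called higher. No member reached an adjusted p under 0.05 in this comparison, and 9 had an unadjusted p under 0.05. So did 3629 of the 19338 genes tested, a similar share.

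Adding BiAux to IAA changed few members. Between BiAux+IAA and IAA, PETE1 was called higher and no member lower, where 1.51% and 1.89% of all tested genes were, and the median was 0.05, or -0.05 without IAA 3 and -0.02 without BiAux+IAA 1. An unadjusted p under 0.05 was reached by 7 members and an adjusted one by 0, the smallest being 0.0825 for LHCB3 (0.40 ± 0.11, not called). Among all 19338 genes tested, 3970 reached an unadjusted p under 0.05, a similar share. LHCB5 (0.33 ± 0.13), PSBX (0.28 ± 0.11) and PSBY (0.41 ± 0.15) had positive values, while LHCA2 (-0.42 ± 0.16) and PSAD2 (-0.38 ± 0.16) had negative ones. The PETE1 call was lost on leaving out IAA 1, IAA 3 or BiAux+IAA 1.

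Whether BiAux acted differently with and without IAA was tested with an interaction term fitted to the 12 libraries together. A positive value means that BiAux lowered a gene less, or raised it more, when IAA was present. Of 41 members, 39 had a positive value, 13 were called higher (31.7%) and 0 lower, where 1.39% of all tested genes were called higher and 0.951% lower. The median was 0.37 over the members and 0.02 over all genes. The largest values were those of LHCB1.3 (1.19 ± 0.18), LHCB5 (0.99 ± 0.18), RBCS1A (0.92 ± 0.26), LHCB3 (0.90 ± 0.20), PSAH1 (0.82 ± 0.34), PSBW (0.77 ± 0.24), GAPB (0.75 ± 0.21) and LHCA3 (0.74 ± 0.26). They were followed by PSBP1, PSAL, LHCB2.1, LHCA1 and PSBY, between 0.61 and 0.64. No member reached an adjusted p under 0.05 (15 had an unadjusted one, and the smallest adjusted p was 0.131, for LHCB1.3, which was also the smallest of all tested genes). Of the 19338 genes tested, 1535 had an unadjusted p under 0.05. In concrete terms, LHCB1.3 averaged 192 ± 8.7 normalized counts in BiAux, against 400 ± 17.2 in mock, and 345 ± 52.6 in BiAux+IAA, against 299 ± 41.1 in IAA (SD, n = 3 each). GAPB averaged 14.0 ± 4.6 in BiAux, against 33.7 ± 4.9 in mock, and 30.3 ± 2.1 in BiAux+IAA, against 29.7 ± 3.1 in IAA. Since GAPB lay below the minimum for testing in BiAux, it was tested only through its higher groups. Its interaction call therefore does not count as support. Mock and BiAux enter the interaction and the BiAux comparison alike, so the members' values in these are not independent. Without BiAux+IAA 1 the number called was 8, and the calls of PSAL and PSAH1 were lost in 6 and 7 of the 12 fits that left out 1 library. With mock 1 and BiAux 1 left out together, a setting chosen after seeing the data, 9 members were called lower with BiAux, no longer including PSAD2 (-0.47), and the interaction called 15.

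**Figure D5:**
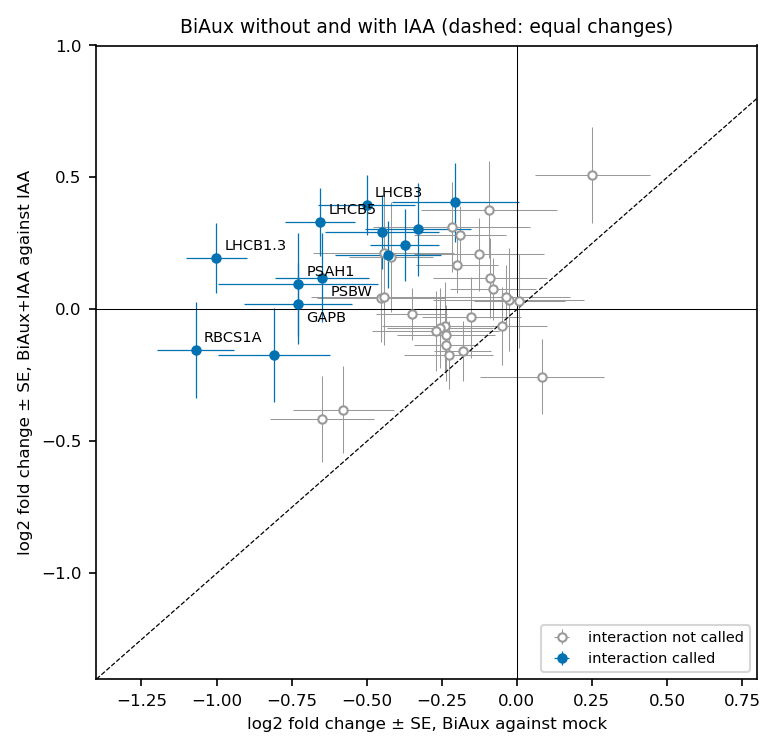
Log2 fold change of each of the 41 genes (points ± standard error from limma) for BiAux against mock (x axis) and for BiAux+IAA against IAA (y axis), which use different libraries; the dashed line marks equal changes. The 13 genes called in the interaction (blue) lie above the line, with LHCB1.3 at -1.0 and 0.19 and RBCS1A at -1.07 and -0.15, and 39 of 41 points have a positive interaction value.

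The members varied together across the 12 libraries. The correlation of each member with the mean of the other members had a median of 0.74 and ranged between -0.05 (GAPA1) and 0.96 (PSBP1), as a description over 12 libraries that share 4 treatments. Only GAPA1, PETE1, LHCB4.3 and GAPB had a value under 0.3. Among 15202 other genes averaging 5 CPM or more, the profile closest to that of the members belonged to AT1G78140 (r = 0.93), followed by AT5G48335 (0.85), AT1G05720 (0.85), ACHT5 (AT5G61440, an atypical thioredoxin of the chloroplast, 0.85) and AT5G19940 (0.83). AT1G78140 had 493, 448 and 471 normalized counts in BiAux, 515, 502 and 427 in IAA, 502, 457 and 460 in BiAux+IAA, and 564, 507 and 539 in mock.

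Related gene lists are given by their counts, and no difference between them and the members was tested. Called lower with BiAux, IAA and BiAux+IAA were 1.08%, 2.00% and 3.73% of all tested genes, so a count of 0 in a short list is near this background. An unadjusted p under 0.05 against mock was reached by 822, 3241 and 2543 of the 19338 genes tested. Of 20 tested chlorophyll synthesis genes, 0 were called with BiAux, IAA or BiAux+IAA against mock (with 0, 2 and 1 at an unadjusted p under 0.05), and their medians were -0.04, 0.01 and -0.01. Of 9 other Calvin cycle genes, also expressed in roots, 0 were called in these comparisons (0, 0 and 1 at an unadjusted p under 0.05). Among 16 other photosynthetic subunits, 12, 15 and 12 had a log2 fold change below 0 with BiAux, IAA and BiAux+IAA, with medians of -0.08, -0.21 and -0.11. Of these subunits, 0 were called with BiAux (1 at an unadjusted p under 0.05), 3 were lower with IAA (the leaf-type ferredoxins FD1, -0.67 ± 0.13, and FD2, -0.54 ± 0.12, and the photosystem II repair protein PSB27, -0.59 ± 0.15), and 2 with BiAux+IAA (PSB27, -0.71 ± 0.19, and the early light-induced ELIP1, -0.67 ± 0.12, adjusted p 0.0425). FD1 had 473, 496 and 498 normalized counts in BiAux and 297, 302 and 298 in IAA, a difference of 0.68 ± 0.08. FD1 thus resembled LHCB6 in being lower with IAA and not with BiAux. Of 8 tested photorespiration genes, whose enzymes work in peroxisomes and mitochondria, AGT1 was called lower with BiAux+IAA (-0.59 ± 0.15).

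Of 17 tested regulators of photosynthesis genes, 0 were called with BiAux or IAA (0 and 8 at an unadjusted p under 0.05) and 1 was called higher with BiAux+IAA (PIF1, 0.56 ± 0.16), where 1.87% of all tested genes were. With IAA only 5 of the 17 had a log2 fold change below 0 and their median was 0.25, against 0.00 over all genes. The medians with BiAux and BiAux+IAA were 0.00 and 0.08. The list mixed genes of unlike action, among them HY5, COP1, PIF genes and the auxin signalling genes ARF7, ARF19 and IAA14. Its median therefore gives no direction of regulation. ARF7, ARF19 and IAA14 averaged 3507, 1616 and 570 normalized counts in IAA, against 2852, 1343 and 467 in mock. GLK2, the GLK factor that is expressed in roots, had 594, 515 and 588 normalized counts in BiAux, 438, 470 and 457 in IAA, 520, 437 and 455 in BiAux+IAA, and 558, 445 and 413 in mock, and was not called. GLK1 lay between 5 and 18 normalized counts and was not tested. HY5 had 500, 917 and 821 normalized counts in BiAux, 693, 714 and 799 in IAA, 621, 638 and 606 in BiAux+IAA, and 713, 674 and 769 in mock, and was not called.

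Markers of tissue and of daily time are given beside these results because LHCB transcripts are known to follow the clock and to be high in shoots. The summed level of the 5 shoot markers with a row ranged between 661 and 1082 normalized counts in BiAux, 1017 and 1494 in IAA, 1380 and 1624 in BiAux+IAA, and 902 and 1926 in mock. Mock 1, which was highest in photosynthesis transcripts, was lowest of the mock libraries in this sum (902). PDF1 and LTP3 make up most of it. CER1 (116, 91 and 83 normalized counts in mock) and SPCH (6, 1 and 4) were highest in mock 1. TMM (7, 13 and 10), PDF1 and LTP3 were lowest in mock 1. Of the 3 tested (CER1, PDF1 and LTP3), 2 had a log2 fold change below 0 with BiAux, and 0 were called. CER1 was called higher with BiAux+IAA, where 1.87% of all tested genes were. The medians of the 3 against mock were -0.63, -0.30 and 0.08 with BiAux, IAA and BiAux+IAA. In the interaction 0 of 3 lay below 0, the median was 0.77 and PDF1 was called higher, where 1.39% of all tested genes were. Of the 9 tested evening clock genes, 0 were called with BiAux (2 at an unadjusted p under 0.05), 7 were higher with IAA and 5 with BiAux+IAA. Of all tested genes, 1.29% and 1.87% were called higher with IAA and BiAux+IAA. Among 8 morning clock genes, 0 were called with BiAux (1 at an unadjusted p under 0.05), 3 were lower with IAA and 5 with BiAux+IAA. Called lower with these were 2.00% and 3.73% of all tested genes. An adjusted p under 0.05 was reached by 3 evening and 1 morning genes with IAA, and by 2 and 4 with BiAux+IAA, but by 0 members. In the interaction 9 of 9 evening genes lay below 0 and 2 were called lower, where 0.951% of all tested genes were. The part of tissue or of clock phase in the changes of the photosynthesis genes was not tested.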

How the data were processed

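Poly(A) RNA from roots was sequenced. The authors' paper describes FastQC, Trimmomatic, STAR alignment to TAIR10, HTSeq counting on Araport11 genes and edgeR; the authors' processing notes as submitted name CASAVA 1.4, FastQC, HISAT2, HTSeq and edgeR. The authors deposited log2 values of normalized counts, whole numbers to which 1 was added; the scaling behind them is not given in the sources used here, and linear values had been assumed. The logarithm was undone first. Count models were not used, since the values are normalized and reads could not be recovered.

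The 19338 genes whose mean reached 0.5 CPM were tested on log2(normalized count + 16.3) with limma 3.58.1 (a trend was fitted to the variance) under R 4.3.3. A comparison used only the 6 libraries of its groups, and the interaction used 12. Steps were tested on simulated data. The labels do not say whether replicates came from separate cultures, so p-values measure only the spread between libraries. Counting error could not be computed, since depth is unknown. The 5 µM and 10 nM doses come from the labels.

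Library titles gave the groups. Deviations from group means of same-numbered BiAux and mock libraries correlated across genes at 0.78, 0.41 and 0.58, each above 0.1, so the replicate numbers were taken to pair these libraries. Unlike numbers correlated as highly between BiAux 2 and mock 3 (0.62) and BiAux 3 and mock 2 (0.48), so only the libraries numbered 1 were set apart. Those of the other comparisons did not all exceed 0.1. The labels do not state any pairing, so the block rests on the data it was applied to.

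The members and gene lists were chosen with earlier results of these data known. Values in every library are given for the 2 most abundant members of each role and for up to 5 members with the largest change among those called in each comparison (25 in all), and the other values were chosen after they were seen. Promoters and gene models are those of RefSeq TAIR10.1, whose gene table held 20694 of the 20814 identifiers. Python 3.11.15, numpy 2.4.6, pandas 2.3.3 and matplotlib 3.10.9 were used. Alternatives were the replicate block, each library left out, pseudocounts of 2 and 0.1 CPM, the log2 values as deposited, a 5 CPM filter or none, a joint fit of the 4 groups, and median-of-ratios scaling.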

Additional observations from a re-analysis of the deposited data

How the results depend on the processing

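Among the 25 members chosen by level or size of change, no called gene reversed its direction under any alternative. The other called members were not checked for this. However, 2 medians over the members changed sign with 1 library left out, as given in the next paragraph. A pseudocount of 2 CPM changed the number of members called lower to 4 with BiAux, 8 with IAA and 4 with BiAux+IAA against mock, called 0 members higher in BiAux+IAA than in IAA, 1 higher and 1 lower in BiAux than in IAA, and 8 in the interaction. A filter at 5 CPM left 24 members, of which 3 were called lower with BiAux, 7 with IAA and 3 with BiAux+IAA against mock, 0 higher in BiAux+IAA than in IAA, 1 higher in BiAux than in IAA, and 7 in the interaction; here fewer members were tested. A pseudocount of 0.1 CPM and the deposited log2 values each called 1 member higher with BiAux+IAA than with mock, and the deposited values also called 1 lower in BiAux+IAA than in IAA. Otherwise the cause was not tested.

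With 1 library left out, members called lower numbered 8 to 12 with BiAux, 6 to 18 with IAA (6 without mock 1, 8 without IAA 3) and 4 to 11 with BiAux+IAA against mock (4 without mock 1, 11 without BiAux+IAA 1). Between BiAux+IAA and IAA, 0 to 2 were called higher and 0 to 1 lower. Between BiAux and IAA, 1 to 4 were called higher and 3 to 7 lower, and in the interaction 8 to 16 were called. The medians over the members lay between -0.37 and -0.15 with BiAux, -0.47 and -0.27 with IAA and -0.35 and -0.19 with BiAux+IAA against mock. Those of BiAux+IAA against IAA (-0.05 to 0.13) and of BiAux against IAA (-0.04 to 0.14) changed sign, to -0.05 and -0.04 without IAA 3 and, for the first, to -0.02 without BiAux+IAA 1. On the deposited log2 values and with a pseudocount of 0.1 CPM, GAPB had a larger change with BiAux (-1.25 and -1.13) than RBCS1A (-1.11 and -1.10).

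The replicate block called 9, 13 and 7 members lower with BiAux, IAA and BiAux+IAA against mock and 14 in the interaction, and changed no other count of calls. Same-numbered libraries share only a number in the labels, and those of BiAux and mock were paired from these data. For the other pairs of groups, the block gave adjusted p-values under 0.05 for 2 members with IAA and 4 with BiAux+IAA against mock. Members under about 30 normalized counts (GAPB, PSBS, LHCB2.1, LHCB2.3, PETE1) are limited by depth, which is unknown.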
